A study of Homo sapiens with 77 samples.

Results

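The genes described here encode 10 amino acid transporters of the plasma membrane, SLC7A5, SLC3A2, SLC1A5, SLC7A1, SLC7A11, SLC38A1, SLC38A2, SLC1A4, SLC7A6 and SLC43A1. They are listed by name, a list drawn up with earlier results of these data known, so their counts beside those of all genes are a description. They were looked up among the 35813 genes of an RNA-seq count table of cells treated with MI-503 and the 21455 genes of a second table of cells treated with a pair of drugs. All 10 were present in both tables and passed the filter on low counts in every comparison. The questions were how the level of each transporter differed between diffuse large B cell lymphoma (DLBCL) lines given solvent alone and how it changed with each drug.

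Amino acids cross the plasma membrane through solute carriers. SLC3A2 is the heavy chain CD98, which carries several light chains to the cell surface. Among these, SLC7A5 (LAT1) exchanges large neutral amino acids such as leucine, SLC7A6 exchanges cationic for neutral amino acids, and SLC7A11 (xCT) takes up cystine in exchange for glutamate. SLC43A1 (LAT3) carries large neutral amino acids without a heavy chain. SLC1A5 (ASCT2) exchanges neutral amino acids including glutamine, SLC1A4 (ASCT1) exchanges small neutral ones such as serine and alanine, and SLC38A1 and SLC38A2 take up neutral amino acids including glutamine together with sodium. SLC7A1 (CAT1) carries arginine and lysine. In cells short of amino acids the kinase EIF2AK4 raises translation of the transcription factor ATF4, and ATF4 is known to act on many genes of amino acid import and synthesis, while leucine and arginine inside the cell are sensed upstream of the growth kinase complex mTORC1. Activated and malignant B cells are known for high CD98 on their surface.

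Established DLBCL lines were studied in 2 RNA-seq experiments with 2 libraries per group. In the first, KARPAS422 and DB, which carry mutant EZH2, and Farage and SUDHL5, with wildtype EZH2, received 800 nM MI-503 or the solvent DMSO for 3 days. In the second, the EZH2-mutant lines KARPAS422 and SuDHL10 received both drugs, 1000 nM EPZ-6438 alone, 330 nM VTP50469 alone or DMSO, for 48 hours in KARPAS422 and 24 hours in SuDHL10. EPZ-6438 (tazemetostat) inhibits EZH2, the methyltransferase of histone H3 lysine 27, and MI-503 and VTP50469 block the binding of menin to MLL1. Doses and times were taken from the study's legends. Each group is 1 cell line. Whether its 2 libraries stem from separate cultures is not stated, and p-values then cover no more than the spread between these libraries, which may be technical.

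Depth was 13034958 to 54883332 counts per library with MI-503 and its controls, and 8956156 to 31573027 for the drug combinations. In DB, depth went with the treatment (52236459 and 46170498 counts with MI-503, against 14695930 and 15474692 with DMSO). The summed level of 6 B cell markers was 2982 to 3890 CPM in the first experiment and 2655 to 5797 CPM in the second, and no B cell marker was at 0 in any library. T cell markers summed to at most 302 CPM, in KARPAS422, and to at most 3.34 CPM in each other line. The libraries of KARPAS422 with both drugs stood apart from each other, with a chi-square of 47.5 per gene between them, against 1.82 to 27.7 in the other pairs of replicates. Levels are given as CPM, counts scaled to library size by TMM, changes as log2 fold changes with the standard error (SE) of the fit, and a gene was called at an adjusted p under 0.1 (edgeR's quasi-likelihood test with Benjamini-Hochberg adjustment over all genes). From bulk RNA, a change in the share of cells cannot be told apart from a change in RNA per cell.

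On hg38, with the GENCODE annotation, the genes lie on several chromosomes. SLC7A5 spans chromosome 16 from 87830023 to 87869507 (− strand) and SLC7A6 spans chromosome 16 from 68264516 to 68301823 (+ strand). SLC3A2 is on chromosome 11 from 62856004 to 62888880 (+ strand), and SLC43A1 on chromosome 11 from 57484534 to 57515780 (− strand). SLC38A1 and SLC38A2 are neighbours, on chromosome 12 from 46183063 to 46270017 (− strand) and on chromosome 12 from 46358188 to 46372773 (− strand). SLC1A5 is on chromosome 19 from 46774883 to 46788594 (− strand), SLC1A4 on chromosome 2 from 64988477 to 65023865 (+ strand), SLC7A1 on chromosome 13 from 29509414 to 29595688 (− strand) and SLC7A11 on chromosome 4 from 138164097 to 138242349 (− strand). SLC7A6 overlaps SLC7A6OS on the other strand, which the tables also count, and no source used here gives the strand setting of the counting, so reads of this pair may be shared. A near-identical copy of SLC7A5, SLC7A5P1, held 9 to 106 counts per library in the MI-503 table, and SLC7A5P2 held 0.

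Promoter windows from 250 bases before to 50 bases after the start of a transcript were taken from RefSeq on GRCh38.p14, the assembly called hg38 in the files, and matched 9 of the 10 genes. The gene without a match is SLC7A11. Each window was searched on both strands for TGATGNAA, the core of the amino acid response element that ATF4 is known to bind, for the E-box CACGTG, and for TGACNNNGC, the core of the antioxidant response element. TGATGNAA was present in 3 of the 9 windows, those of SLC1A5, SLC7A1 and SLC1A4, and in 3.62% of all 35116 promoter windows. CACGTG was present in 1 of the 9, SLC7A5, and in 7.26% of all windows. TGACNNNGC was present in 3 of the 9, SLC7A5, SLC7A1 and SLC7A6, and in 13.3% of all windows. The motifs do not overlap each other in these windows. A match describes the letters of the window and not a bound site.

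The windows of the genes with TGATGNAA and of SLC7A5, the transporter with the largest fall with MI-503 in KARPAS422, are shown 5′ to 3′, with matches to TGATGNAA or CACGTG in capitals. They are chr19:46784765-46785064 (− strand) for SLC1A5, chr13:29595639-29595938 (− strand) for SLC7A1, chr2:64989149-64989448 (+ strand) for SLC1A4 and chr16:87869458-87869757 (− strand) for SLC7A5. In SLC1A5 the match begins at base −97 from the start, in SLC7A1 at base 8, and in SLC1A4 at base −7 on the other strand. The start used for SLC1A5 lies 3780 bases from that of its MANE Select transcript, and those of SLC7A1, SLC1A4 and SLC7A5 coincide with it.
SLC1A5: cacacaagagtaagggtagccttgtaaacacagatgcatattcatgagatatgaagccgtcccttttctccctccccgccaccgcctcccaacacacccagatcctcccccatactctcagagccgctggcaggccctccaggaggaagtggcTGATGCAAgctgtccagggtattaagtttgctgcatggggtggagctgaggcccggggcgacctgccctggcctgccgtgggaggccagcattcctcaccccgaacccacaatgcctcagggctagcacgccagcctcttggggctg
SLC7A1: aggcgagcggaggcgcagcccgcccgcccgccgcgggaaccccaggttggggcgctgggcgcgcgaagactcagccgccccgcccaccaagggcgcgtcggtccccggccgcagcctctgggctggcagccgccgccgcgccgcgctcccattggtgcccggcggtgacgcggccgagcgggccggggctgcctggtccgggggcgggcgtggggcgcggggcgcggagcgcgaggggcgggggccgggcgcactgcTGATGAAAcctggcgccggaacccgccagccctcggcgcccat
SLC1A4: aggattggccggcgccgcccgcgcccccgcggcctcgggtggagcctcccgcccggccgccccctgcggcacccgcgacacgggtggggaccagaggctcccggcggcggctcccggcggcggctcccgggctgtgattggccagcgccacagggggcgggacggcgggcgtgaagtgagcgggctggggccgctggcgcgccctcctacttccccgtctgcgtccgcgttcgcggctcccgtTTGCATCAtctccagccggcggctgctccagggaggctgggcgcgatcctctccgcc
SLC7A5: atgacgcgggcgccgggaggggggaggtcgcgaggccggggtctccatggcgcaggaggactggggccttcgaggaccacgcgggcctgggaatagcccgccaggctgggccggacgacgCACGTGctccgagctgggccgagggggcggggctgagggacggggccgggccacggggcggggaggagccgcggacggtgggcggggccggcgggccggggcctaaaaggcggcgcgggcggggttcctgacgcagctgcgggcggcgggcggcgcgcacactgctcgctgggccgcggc

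In untreated cells, here those given DMSO alone, all 10 transporters were expressed in all lines. The 4 lines of the MI-503 experiment differed most in SLC43A1 and SLC7A5. Per kilobase of transcript, the scale on which genes can be compared, SLC7A5 was the most abundant of the 10 in KARPAS422, at 212 ± 8.20 CPM per kb (SD, n = 2), and SLC3A2 followed at 126 ± 2.68 CPM per kb. SLC7A11 was the least abundant there, at 5.48 ± 0.0202 CPM per kb. In SUDHL5, SLC3A2 stood at 169.8 ± 4.43 CPM per kb and SLC7A5 at 139 ± 6.67 CPM per kb. In DB the level of SLC1A5, 113 ± 1.61 CPM per kb, was above those of SLC7A5 (81.3 ± 1.87 CPM per kb) and SLC3A2 (79.4 ± 0.120 CPM per kb). In Farage SLC3A2 had 75.4 ± 2.42 CPM per kb and SLC43A1 7.68 ± 0.00449 CPM per kb.

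CD98 and its light chains followed different orders across the 4 untreated lines. SLC3A2, the heavy chain, had 326 and 314 CPM in SUDHL5, 235 and 242 CPM in KARPAS422, 149.5 and 149.8 CPM in DB and 139 and 145 CPM in Farage. The last pair of lines did not pass the test (DB minus Farage, log2 difference −0.02, SE 0.0394, adjusted p = 0.637). SLC7A5, the leucine exchanger, had 939.6 and 992 CPM in KARPAS422, 654 and 611 CPM in SUDHL5, 376 and 364 CPM in DB and 228 and 238 CPM in Farage. No library of one line overlapped another in SLC7A5, and KARPAS422 exceeded Farage by 1.99 (SE 0.0409) on the log2 scale. SLC7A6 was highest in Farage (208 and 194 CPM), followed by KARPAS422 (105 and 111 CPM), DB (78.1 and 76.7 CPM) and SUDHL5 (71.2 and 73.9 CPM). DB and SUDHL5 did not differ beyond their spread in SLC7A6 (log2 difference 0.06, SE 0.0520, adjusted p = 0.295). When libraries were scaled to total counts alone, SLC7A6 was called higher in DB (log2 0.18, adjusted p = 0.0102). SLC7A11, the cystine transporter, was highest in DB, with 88.8 and 97.4 CPM, against 57.6 and 55.9 CPM in Farage, 53.0 and 52.7 CPM in KARPAS422 and 46.2 and 47.1 CPM in SUDHL5. Its small difference between KARPAS422 and Farage (log2 difference −0.17, SE 0.0533, adjusted p = 0.0111) lost the call without the filter on low counts (adjusted p = 0.160) and changed sign when libraries were scaled to total counts alone (log2 0.02, adjusted p = 0.765).

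Among the transporters of large neutral amino acids, SLC43A1 showed the widest range. It had 139 and 148 CPM in KARPAS422, 148 and 139 CPM in SUDHL5, 98.3 and 97.1 CPM in DB and 19.3 and 19.3 CPM in Farage. KARPAS422 and SUDHL5 were not distinguished by the test (log2 difference −0.02, SE 0.0405, adjusted p = 0.729), while Farage was lower than SUDHL5 (log2 difference −2.85, SE 0.0584, adjusted p = 1.08e-14).

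Of the neutral amino acid and glutamine transporters, SLC1A5 had its highest level in DB (329 and 322 CPM), then SUDHL5 (273 and 257 CPM), KARPAS422 (250.2 and 260.4 CPM) and Farage (151 and 156 CPM). Its libraries in KARPAS422 and SUDHL5 lay close together, and the difference of these lines (log2 difference −0.07, SE 0.0352, adjusted p = 0.0897) changed sign with total counts alone (log2 0.09, adjusted p = 0.0252) and was lost without replicate 1 of KARPAS422 (adjusted p = 0.436) or of SUDHL5 (adjusted p = 0.522). SLC1A4 was highest in KARPAS422, with 334 and 340.0 CPM, against 160.0 and 156 CPM in Farage, 161 and 152 CPM in SUDHL5 and 121 and 125 CPM in DB. Farage and SUDHL5 were again not separated (log2 difference 0.06, SE 0.0374, adjusted p = 0.155). Alternative fits called SLC1A4 higher in Farage, with DESeq2 (adjusted p = 0.0569), RLE size factors (adjusted p = 0.0343) and counts thinned to the smallest library (adjusted p = 0.0116). SLC38A1 had 875 and 835 CPM in SUDHL5, 582 and 576 CPM in KARPAS422, 446 and 466 CPM in DB and 395 and 405 CPM in Farage. SLC38A2 had 419 and 424 CPM in SUDHL5, 275 and 261 CPM in KARPAS422, 235 and 225 CPM in Farage and 198 and 205 CPM in DB. The cationic transporter SLC7A1 followed the order of SLC38A2, with 371 and 359 CPM in SUDHL5, 284 and 293 CPM in KARPAS422, 199 and 201 CPM in Farage and 158 and 155 CPM in DB. SUDHL5 held the highest level of 4 of the 10 genes, SLC3A2, SLC38A1, SLC38A2 and SLC7A1. The small difference of SLC38A1 between DB and Farage (log2 difference 0.09, SE 0.0348, adjusted p = 0.0240) was lost without replicate 2 of DB (adjusted p = 0.155) or replicate 1 of Farage (adjusted p = 0.126).

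Counted over the set, most transporters differed between any pair of untreated lines, as did most genes. Between KARPAS422 and Farage, 8 of 10 were higher and 2 lower in KARPAS422 than in Farage, against 41.8% and 38.6% of all genes tested. Between KARPAS422 and SUDHL5, 4 of 10 were higher and 5 lower in KARPAS422 than in SUDHL5, against 41.2% and 40.6% of all genes tested. For DB and Farage, 5 of 10 were higher and 4 lower in DB than in Farage, against 40.6% and 41.5% of all genes tested. For DB and SUDHL5, 2 of 10 were higher and 7 lower in DB than in SUDHL5, against 39.8% and 41.6% of all genes tested. Within the EZH2-mutant lines, 8 of 10 were higher and 2 lower in KARPAS422 than in DB, against 42% and 39.2% of all genes tested. Within the EZH2-wildtype lines, 2 of 10 were higher and 7 lower in Farage than in SUDHL5, against 38.6% and 39.7% of all genes tested. The 9 or 10 called in each pair stand beside backgrounds in which most genes were called. Of the called genes, those lower than in SUDHL5 were the majority in DB and Farage, and those higher than in Farage were the majority in KARPAS422. With total counts alone, 61.5% of the genes called between KARPAS422 and Farage were higher in KARPAS422 and the median of all genes was 0.23, against 52.0% and 0.04 on the log2 scale with TMM, which moved no transporter other than SLC7A11 across the threshold.

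**Figure D1:**
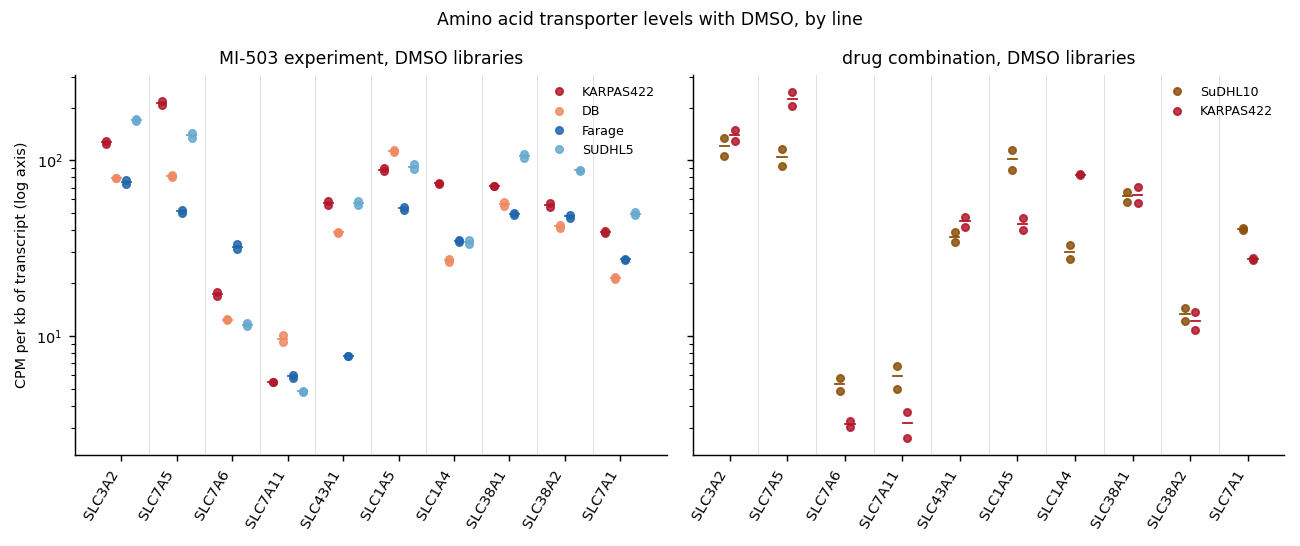
Level of each transporter in untreated (DMSO) cells, in CPM per kb of transcript on a log axis, with 1 point per library and a bar at the mean of 2 libraries, for the lines of the MI-503 experiment and the drug combination experiment. SLC43A1 spans the widest range in the MI-503 experiment, with means of 57.1 CPM per kb in KARPAS422 and 7.68 CPM per kb in Farage.

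MI-503 lowered 9 of the 10 transporters in KARPAS422 and raised SLC7A11, against 26.3% of all genes lower and 25.5% higher. Their median log2 change was −0.90, and that of all genes was 0.01. SLC7A5 fell by 70.1%, the largest fall of the 10. SLC1A5 fell by 64.2%, SLC3A2 fell by 61.2%, SLC43A1 fell by 58.9% and SLC7A1 fell by 56.3%. The fall exceeded 1.5-fold in 6 of the 10, the sixth being SLC38A2.

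The heavy chain SLC3A2 had 89.9 and 96.1 CPM with MI-503, against 235 and 242 CPM with DMSO in KARPAS422 (log2 change −1.37, SE 0.0415, adjusted p = 1.13e-08). SLC7A5 had 267 and 313 CPM with MI-503, against 939.6 and 992 CPM with DMSO (log2 change −1.74, SE 0.0638, adjusted p = 1.99e-08). Both subunits of the leucine exchanger were thus lower in each treated library than in each control library. SLC7A6 had 91.0 and 92.0 CPM with MI-503, against 105 and 111 CPM with DMSO (log2 change −0.24, SE 0.0391, adjusted p = 0.000438). SLC7A11 had 63.1 and 61.6 CPM with MI-503, against 53.0 and 52.7 CPM with DMSO (log2 change 0.24, SE 0.0406, adjusted p = 0.000664). It was the sole transporter of the 10 that rose in this line, and its groups did not overlap. SLC43A1, which also carries leucine, had 57.2 and 61.6 CPM with MI-503, against 139 and 148 CPM with DMSO (log2 change −1.28, SE 0.0486, adjusted p = 2.20e-08).

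The glutamine transporters fell by unequal amounts in KARPAS422. SLC1A5 had 86.8 and 97.7 CPM with MI-503, against 250.2 and 260.4 CPM with DMSO (log2 change −1.48, SE 0.0527, adjusted p = 1.84e-08). SLC38A2 had 170.1 and 183 CPM with MI-503, against 275 and 261 CPM with DMSO (log2 change −0.61, SE 0.0436, adjusted p = 1.63e-06). SLC38A1 had 422.5 and 416 CPM with MI-503, against 582 and 576 CPM with DMSO (log2 change −0.47, SE 0.0264, adjusted p = 3.10e-07). These 3 groups of treated libraries lay below their controls without overlap. For this and the other separations described, the share over all genes was not counted. SLC1A4, the exchanger of small neutral amino acids, had 289 and 309.7 CPM with MI-503, against 334 and 340.0 CPM with DMSO (log2 change −0.17, SE 0.0394, adjusted p = 0.00396), the smallest fall of the 9. SLC7A1, the arginine and lysine carrier, had 123 and 129.6 CPM with MI-503, against 284 and 293 CPM with DMSO (log2 change −1.20, SE 0.0377, adjusted p = 1.34e-08). All 10 calls of this line held in every alternative fit and without any 1 library.

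In DB, MI-503 lowered 7 of the 10 transporters and raised 3, SLC7A11, SLC43A1 and SLC38A1, against 34.7% of all genes lower and 34.5% higher. The median log2 change was −0.27 for the transporters and 0.02 for all genes. SLC1A4 fell by 66.9%, the largest fall in this line, and had 39.9 and 41.5 CPM with MI-503, against 121 and 125 CPM with DMSO (log2 change −1.60, SE 0.0402, adjusted p = 3.46e-11). SLC1A5 had 170.2 and 178 CPM with MI-503, against 329 and 322 CPM with DMSO (log2 change −0.90, SE 0.0316, adjusted p = 2.92e-10). In both genes each treated library lay far below each control library. SLC7A5 had 242 and 234 CPM with MI-503, against 376 and 364 CPM with DMSO (log2 change −0.64, SE 0.0304, adjusted p = 3.84e-09). Its heavy chain SLC3A2 had 129.6 and 128 CPM with MI-503, against 149.5 and 149.8 CPM with DMSO (log2 change −0.21, SE 0.0314, adjusted p = 7.83e-05). SLC7A1 had 96.5 and 100.02 CPM with MI-503, against 158 and 155 CPM with DMSO (log2 change −0.67, SE 0.0346, adjusted p = 8.06e-09). Smaller falls were measured in SLC7A6 (log2 −0.31, SE 0.0415) and SLC38A2 (log2 −0.23, SE 0.0319).

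The cystine transporter SLC7A11 rose by 77.7% in DB, with 164 and 166 CPM with MI-503, against 88.8 and 97.4 CPM with DMSO (log2 change 0.83, SE 0.0403, adjusted p = 4.41e-09). SLC43A1, which fell in KARPAS422, had 113 and 114 CPM with MI-503, against 98.3 and 97.1 CPM with DMSO in DB (log2 change 0.22, SE 0.0346, adjusted p = 0.000126). The rise of SLC38A1 was small, with 476 and 477 CPM with MI-503, against 446 and 466 CPM with DMSO (log2 change 0.07, SE 0.0280, adjusted p = 0.0478). The last call was lost with DESeq2 (adjusted p = 0.112), in a fit of all 16 libraries (adjusted p = 0.309) and without replicate 1 of DMSO (adjusted p = 0.575). After thinning the counts to the smallest library, which removes the difference in depth between treated and control libraries of DB, 10 of the 10 remained called in the same directions.

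In the EZH2-wildtype lines fewer transporters were called. In Farage 5 of the 10 fell and 1 rose, against 14.7% of all genes lower and 12.3% higher, with a median log2 change of −0.16, against 0.01 for all genes. SLC7A1 had 151 and 163 CPM with MI-503, against 199 and 201 CPM with DMSO (log2 change −0.38, SE 0.0394, adjusted p = 0.000174). SLC7A5 had 185 and 206 CPM with MI-503, against 228 and 238 CPM with DMSO (log2 change −0.29, SE 0.0438, adjusted p = 0.00170). The falls of SLC1A5 (log2 −0.22, SE 0.0422), SLC38A1 (log2 −0.19, SE 0.0376) and SLC1A4 (log2 −0.19, SE 0.0404) were below 1.5-fold, as were those of SLC7A1 and SLC7A5. SLC43A1, low in this line, had 23.1 and 25.6 CPM with MI-503, against 19.3 and 19.3 CPM with DMSO (log2 change 0.31, SE 0.0758, adjusted p = 0.0194), a rise that DESeq2 did not call (adjusted p = 0.169). SLC3A2 (log2 −0.13, SE 0.0506), SLC38A2 (log2 −0.09, SE 0.0396), SLC7A11 (log2 −0.07, SE 0.0670) and SLC7A6 (log2 −0.06, SE 0.0470) did not pass the test. Without replicate 2 of DMSO the calls of SLC1A5, SLC38A1, SLC1A4 and SLC43A1 were lost and 2 of the 6 were left, with log2 values of −0.19, −0.17, −0.21 and 0.31 in that order, and without replicate 1 of DMSO those of SLC1A4 (adjusted p = 0.159) and SLC43A1 (adjusted p = 0.120) were lost. With total counts alone, 62.0% of the genes called in Farage were higher, against 45.5% with TMM, and the 6 transporters were called in the same directions. Replicate 1 of MI-503 held 77.7 CPM of 10 epithelial markers and 26.4 CPM of 5 erythroid markers, against 14.5 to 34.4 CPM and at most 0.86 CPM in the other libraries of the experiment. Without this library the transporters called in Farage kept their directions. The part of these markers in the changes was not tested otherwise.

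In SUDHL5 7 of the 10 fell and none rose, against 28.7% of all genes lower and 26.3% higher, with a median log2 change of −0.31, against −0.0037 for all genes. SLC1A4 had 78.7 and 83.3 CPM with MI-503, against 161 and 152 CPM with DMSO (log2 change −0.94, SE 0.0416, adjusted p = 7.32e-07), and was the only one of the 10 to fall by more than 1.5-fold in this line. SLC43A1 had 96.8 and 97.9 CPM with MI-503, against 148 and 139 CPM with DMSO (log2 change −0.55, SE 0.0440, adjusted p = 1.19e-05). SLC7A1 had 264 and 269.9 CPM with MI-503, against 371 and 359 CPM with DMSO (log2 change −0.44, SE 0.0392, adjusted p = 2.39e-05). SLC7A1 and SLC7A5 were lower with MI-503 in all 4 lines, and SLC1A4 as well. SLC7A5 had 490.1 and 527 CPM with MI-503, against 654 and 611 CPM with DMSO (log2 change −0.30, SE 0.0386, adjusted p = 0.000206), and SLC3A2 had 241 and 267 CPM with MI-503, against 326 and 314 CPM with DMSO (log2 change −0.32, SE 0.0403, adjusted p = 0.000194). SLC38A1 (log2 −0.33, SE 0.0405) and SLC7A11 (log2 −0.24, SE 0.0640) also fell. SLC1A5 had 252 and 276 CPM with MI-503, against 273 and 257 CPM with DMSO, and its groups overlapped (log2 change 0.01, SE 0.0394, adjusted p = 0.864). SLC38A2 (log2 −0.09, SE 0.0441) and SLC7A6 (log2 0.07, SE 0.0697) did not pass the test either.

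**Figure D2:**
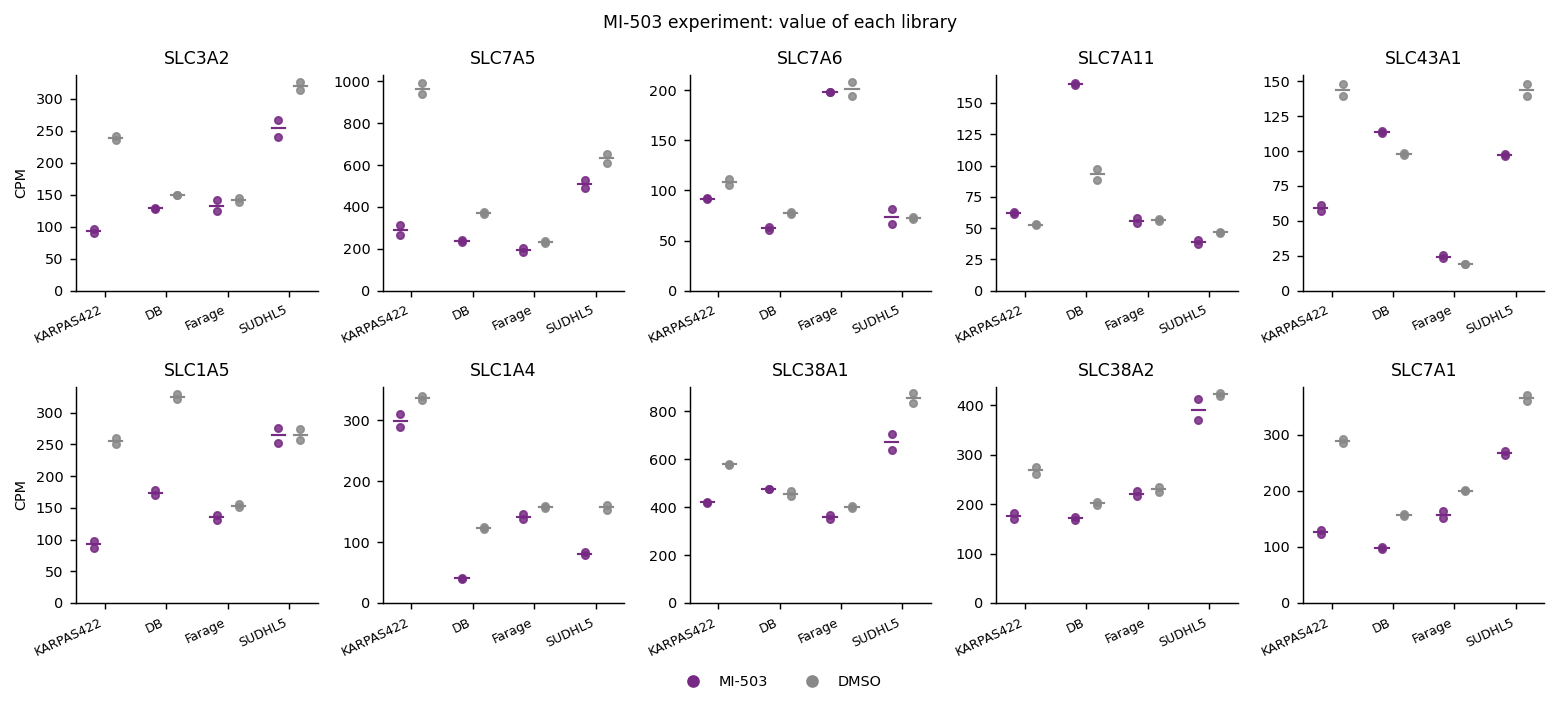
CPM of each transporter in every library of the MI-503 experiment, on a linear axis from 0, with MI-503 left of DMSO in each line, 1 point per library and a bar at the mean of 2 libraries. In KARPAS422 the SLC7A5 libraries lie at 267 and 313 CPM with MI-503, against 939.6 and 992 CPM with DMSO.

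**Figure D3:**
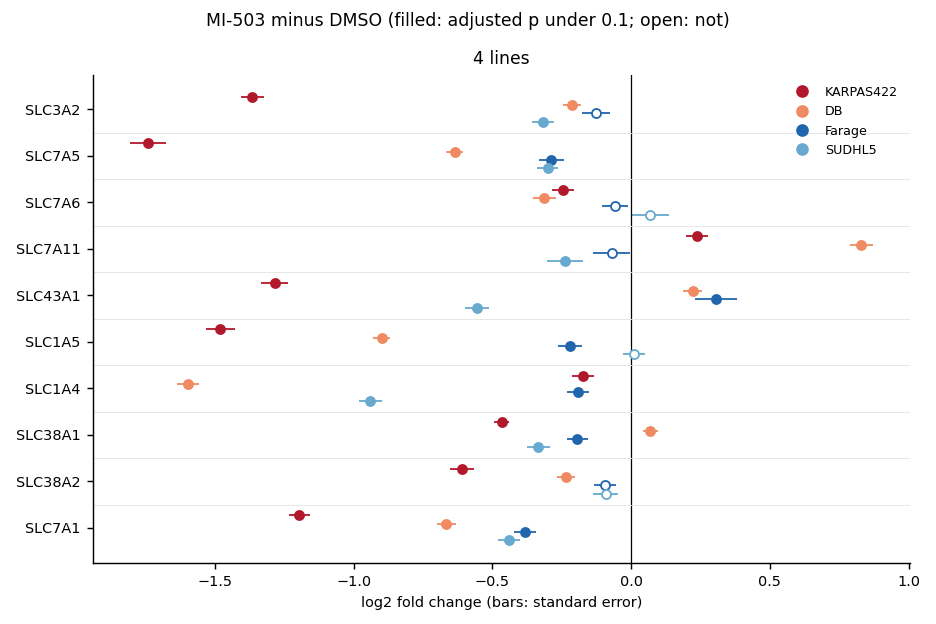
Log2 fold change of each transporter with MI-503 over DMSO in each of the 4 lines, with bars of 1 standard error of the edgeR fit and filled points for an adjusted p under 0.1. SLC1A4 has its largest fall in DB (−1.60) and SLC7A5 in KARPAS422 (−1.74).

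The difference between the changes of 2 lines was tested for an EZH2-mutant against an EZH2-wildtype line. In KARPAS422 minus Farage the change with MI-503 was lower for 8 of the 10 transporters and higher for 1, against 14.7% and 9.52% of all genes. The largest differences were in SLC43A1 (log2 difference −1.62, SE 0.0986, adjusted p = 1.32e-06), SLC7A5 (log2 difference −1.48, SE 0.103, adjusted p = 3.14e-06), SLC1A5 (log2 difference −1.29, SE 0.0819, adjusted p = 1.86e-06) and SLC3A2 (log2 difference −1.27, SE 0.0805, adjusted p = 1.86e-06). The change was also lower in KARPAS422 for SLC7A1 (log2 −0.84, SE 0.0634), SLC38A2 (log2 −0.54, SE 0.0696) and SLC38A1 (log2 −0.30, SE 0.0525). For SLC1A4 the difference did not pass the test, at −0.01 (SE 0.0664). The small difference of SLC7A6 (log2 difference −0.21, SE 0.0644, adjusted p = 0.0392) was lost with DESeq2 (adjusted p = 0.137) and without replicate 1 or 2 of KARPAS422 with MI-503 (adjusted p = 0.278 and 0.196) or DMSO (adjusted p = 0.124 and 0.345) or replicate 2 of Farage with DMSO (adjusted p = 0.271). That of SLC7A11 (log2 difference 0.28, SE 0.0775, adjusted p = 0.0272) was lost without replicate 1 of Farage with DMSO (adjusted p = 0.143). With RLE size factors 53.7% of all genes called in this difference were higher, against 39.4% with TMM, and 1 of the 10 was higher and 7 were lower. In DB minus SUDHL5 the change was lower for 5 of the 10 and higher for 3, against 22.5% and 19.3% of all genes. The change of SLC1A5 was lower in DB (log2 difference −0.90, SE 0.0675, adjusted p = 2.62e-07), as was that of SLC1A4 (log2 difference −0.65, SE 0.0698, adjusted p = 6.69e-06). SLC7A11 (log2 difference 1.06, SE 0.0807, adjusted p = 2.95e-07), SLC43A1 (log2 difference 0.78, SE 0.0646, adjusted p = 6.96e-07) and SLC38A1 (log2 difference 0.41, SE 0.0649, adjusted p = 0.000221) had the higher change in DB. The heavy chain SLC3A2 did not pass the test between DB and SUDHL5 (log2 difference 0.11, SE 0.0672, adjusted p = 0.245), nor did SLC38A2 (log2 difference −0.14, SE 0.0671, adjusted p = 0.132), which was called lower by DESeq2 (adjusted p = 0.0596), with RLE size factors (adjusted p = 0.0554) and without replicate 1 of SUDHL5 with MI-503 (adjusted p = 0.0136). With total counts alone SLC3A2 was called higher in DB (log2 0.16, adjusted p = 0.0294). SLC7A5 (log2 difference −0.33, SE 0.0637, adjusted p = 0.00100) and SLC7A6 (log2 difference −0.38, SE 0.0990, adjusted p = 0.00822) had the lower change in DB. The change of SLC7A1 was lower in DB (log2 difference −0.22, SE 0.0585, adjusted p = 0.00864), a call lost without replicate 1 of DB with DMSO (adjusted p = 0.118). SLC7A5, SLC1A5, SLC7A1 and SLC7A6 had the lower change in the EZH2-mutant line of both pairs, and SLC7A11 had the higher change there. SLC38A1 and SLC43A1 had the lower change in KARPAS422 and the higher change in DB. How many of all genes were called the same way in both pairs was not counted. Within each pair EZH2 status and line cannot be told apart.

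Beside the transporters stand the genes of the amino acid response, a list of 16 with ATF4, its upstream kinase EIF2AK4 and genes known to respond to them. In KARPAS422, 13 of 16 were lower with MI-503 and 1 was higher, with a median log2 change of −1.29. ATF4 itself averaged 275 CPM with MI-503 and 677 CPM with DMSO (log2 −1.30, SE 0.0462). SESN2, a leucine sensor, averaged 18.8 CPM with MI-503 and 73.3 CPM with DMSO (log2 −1.98, SE 0.0649), and the transcription factor ATF5 averaged 75.7 CPM with MI-503 and 337 CPM with DMSO (log2 −2.18, SE 0.0784). In DB the list was split, with 8 of 16 higher and 5 lower and a median of 0.37. There TRIB3, a pseudokinase, averaged 450.1 CPM with MI-503 and 158 CPM with DMSO (log2 1.52, SE 0.0294), whereas PSAT1, an enzyme of serine synthesis, averaged 48.8 CPM with MI-503 and 104 CPM with DMSO (log2 −1.08, SE 0.0419). In Farage 2 of 14 were higher and 3 lower (median −0.07). In SUDHL5 5 of 16 were higher and 9 lower (median −0.33), among them ASNS, the asparagine synthetase, which averaged 398 CPM with MI-503 and 691 CPM with DMSO (log2 −0.78, SE 0.0460). Of all genes 25.5% and 26.3% were higher and lower in KARPAS422, 34.5% and 34.7% in DB, 12.3% and 14.7% in Farage and 26.3% and 28.7% in SUDHL5. The medians of all genes lay between −0.00374 and 0.02 in these 4 comparisons.

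The other amino acid transporters, a list of 33 beyond the 10 described, had counts near those of all genes in KARPAS422. Of 22 that passed the filter there, 5 were higher and 6 lower with MI-503 (median log2 change 0.07), against 25.5% and 26.3% of all genes. In DB 9 of 21 were higher and 6 lower (median 0.15, all genes 34.5% and 34.7%), in Farage 0 of 19 were higher and 5 lower (median −0.03, all genes 12.3% and 14.7%), and in SUDHL5 5 of 17 were higher and 1 lower (median −0.04, all genes 26.3% and 28.7%). SLC36A4, an amino acid transporter of the SLC36 family, averaged 128 CPM with MI-503 and 101 CPM with DMSO in KARPAS422 (log2 0.34, SE 0.0396). SLC38A5, a glutamine transporter related to SLC38A1 and SLC38A2, averaged 19.7 CPM with MI-503 and 33.2 CPM with DMSO in DB (log2 −0.75, SE 0.0628). The difference between this list and the 10 genes was not tested.

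SLC7A5, SLC3A2, SLC1A5, SLC7A1 and SLC38A2 varied together across the 16 libraries of the MI-503 experiment once the mean of each line was removed. SLC7A5 correlated with SLC3A2 at r = 0.976, with SLC38A2 at r = 0.978 and with SLC7A1 at r = 0.970 (Pearson). SLC7A11 went the other way from several, at r = −0.685 with SLC1A5 and −0.720 with SLC7A6, and had r = 0.0842 with SLC38A1. SLC1A4 varied less with the heavy chain (r = 0.348) and with SLC43A1 (r = 0.138), as did SLC7A6 with SLC43A1 (r = 0.332). Of 10559 genes of at least 5 CPM, those most like SLC7A5 were TRIM25 (r = 0.981), SLC38A2 (r = 0.978), GPT2 (r = 0.977), SLC3A2 (r = 0.976) and PSAT1 (r = 0.972). Those most like SLC3A2 were GARS1 (r = 0.995), CHAC1 (r = 0.989), SESN2 (r = 0.983), ATF4 (r = 0.981) and ASNS (r = 0.980). GARS1 encodes a transfer RNA synthetase and GPT2 an alanine aminotransferase. The points share treatment, line and library, and for SLC7A5 and SLC3A2 the change in KARPAS422 is the widest among them, so the values describe these libraries only.

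The drug combination experiment asked how inhibition of EZH2, of menin or of both changed expression in 2 EZH2-mutant lines. In its untreated libraries, 4 of the 10 transporters were higher and 3 lower in SuDHL10 than in KARPAS422, against 30.6% and 31.8% of all genes. SLC1A5 had 329.5 and 254 CPM in SuDHL10, against 116 and 135 CPM in KARPAS422 (log2 difference 1.18, SE 0.167, adjusted p = 0.000110). SLC1A4 had 150.0 and 125 CPM in SuDHL10, against 381 and 377 CPM in KARPAS422 (log2 difference −1.49, SE 0.142, adjusted p = 4.58e-06). The exchangers of glutamine and of small neutral amino acids thus had opposite orders in these lines. SLC7A5 had 531 and 421 CPM in SuDHL10, against 929 and 1119 CPM in KARPAS422 (log2 difference −1.14, SE 0.156, adjusted p = 9.11e-05). SLC7A11, SLC7A6 and SLC7A1 were higher in SuDHL10 by 0.88 (SE 0.198), 0.72 (SE 0.166) and 0.54 (SE 0.131) on the log2 scale. SLC43A1 was lower (log2 difference −0.32, SE 0.154, adjusted p = 0.0955), a call that was lost without any 1 of the 4 libraries and with the replicate block (log2 −0.32, adjusted p = 0.368). SLC3A2 (log2 −0.24, SE 0.158), SLC38A1 (log2 −0.06, SE 0.137) and SLC38A2 (log2 0.10, SE 0.163) did not pass the test. Alternative fits called SLC3A2 lower, with total counts alone (log2 −0.43, adjusted p = 0.0329) and in a fit of all 16 libraries (log2 −0.28, adjusted p = 0.0871). With total counts alone, 36.6% of the genes called between these lines were higher in SuDHL10 and the median of all genes was −0.19, against 49.0% and −0.01 with TMM.

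In KARPAS422 both drugs together lowered 7 of the 10 transporters and raised none, against 25.2% of all genes lower and 23.5% higher. EPZ-6438 alone lowered 5 and raised none, against 10% lower and 8.27% higher. With VTP50469 alone none was called by edgeR or by DESeq2, and 0 of the 10 had an unadjusted p under 0.05, against 3.18% of all genes higher and 0.197% lower. The median log2 change of the 10 was −0.78 with both drugs, −0.47 with EPZ-6438 and 0.07 with VTP50469, and that of all genes was 0.10, −0.02 and 0.00292. These comparisons share the DMSO libraries.

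SLC3A2 had 140.0 and 143 CPM with both drugs, 171 and 167 CPM with EPZ-6438 and 271 and 253 CPM with VTP50469, against 245 and 279.5 CPM with DMSO in KARPAS422. It fell with both drugs (log2 change −0.95, SE 0.106, adjusted p = 0.00103) and with EPZ-6438 (log2 change −0.68, SE 0.106, adjusted p = 0.0170). SLC7A5 had 636 and 640.2 CPM with both drugs, 718 and 661 CPM with EPZ-6438 and 1131 and 1068 CPM with VTP50469, against 929 and 1119 CPM with DMSO. It fell by 40.1% with both drugs (log2 −0.74, SE 0.109) and by 34.7% with EPZ-6438 (log2 −0.61, SE 0.109). For the leucine exchanger the libraries with VTP50469 lay within or beside those with DMSO, and the libraries with EPZ-6438 or both drugs lay below. SLC43A1 had 64.7 and 68.6 CPM with both drugs, 79.8 and 74.1 CPM with EPZ-6438 and 131 and 126 CPM with VTP50469, against 105 and 120.3 CPM with DMSO. It fell with both drugs (log2 −0.82, SE 0.108) and with EPZ-6438 (log2 −0.60, SE 0.108).

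SLC1A5 showed the largest fall with both drugs, with 53.5 and 56.9 CPM with both drugs, 84.3 and 80.4 CPM with EPZ-6438 and 133 and 126 CPM with VTP50469, against 116 and 135 CPM with DMSO in KARPAS422. It fell by 57.8% with both drugs (log2 −1.25, SE 0.113, adjusted p = 0.000574) and by 36.4% with EPZ-6438 (log2 −0.65, SE 0.112, adjusted p = 0.0205). SLC7A1, the cationic transporter, had 103 and 91.0 CPM with both drugs, 164 and 164 CPM with EPZ-6438 and 192 and 186 CPM with VTP50469, against 199 and 203 CPM with DMSO. It fell with both drugs (log2 change −1.10, SE 0.117, adjusted p = 0.000894) and did not pass the test with EPZ-6438 (log2 change −0.34, SE 0.116, adjusted p = 0.119). It was called lower with EPZ-6438 by DESeq2 (adjusted p = 0.00110), after thinning (adjusted p = 0.0190), with RLE size factors (adjusted p = 0.0482), in a fit of the 2 groups alone (adjusted p = 0.0515) and with total counts alone (adjusted p = 0.0797). SLC1A4 had 204 and 183 CPM with both drugs, 259.6 and 252 CPM with EPZ-6438 and 342 and 328 CPM with VTP50469, against 381 and 377 CPM with DMSO. Its log2 changes were −1.02 (SE 0.109) with both drugs and −0.61 (SE 0.108) with EPZ-6438, both past the test. SLC38A1 fell with both drugs (log2 change −0.65, SE 0.220, adjusted p = 0.0550), with 407 and 269 CPM with both drugs, 455 and 441 CPM with EPZ-6438 and 444 and 451 CPM with VTP50469, against 570.1 and 462 CPM with DMSO. In SLC38A1 the replicates with both drugs stood far apart, and the call was lost without replicate 1 of DMSO (adjusted p = 0.170) and in a fit of the 2 groups alone (adjusted p = 0.164).

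SLC7A11, SLC38A2 and SLC7A6 were not called in KARPAS422 in the fit without replicate numbers. SLC7A11 had 65.6 and 36.8 CPM with both drugs, 41.0 and 36.9 CPM with EPZ-6438 and 36.4 and 37.5 CPM with VTP50469, against 35.8 and 25.4 CPM with DMSO, and both drugs minus DMSO gave log2 change 0.71, SE 0.303, adjusted p = 0.107. SLC38A2 had 115 and 67.2 CPM with both drugs, 81.8 and 84.8 CPM with EPZ-6438 and 70.0 and 71.96 CPM with VTP50469, against 65.5 and 51.8 CPM with DMSO, and both drugs minus DMSO gave log2 change 0.60, SE 0.272, adjusted p = 0.125. In both genes replicate 1 with both drugs was well above replicate 2. With the replicate number as a block, these were called higher (SLC7A11 log2 0.68, adjusted p = 0.0213, and SLC38A2 log2 0.57, adjusted p = 0.0430), as they were with DESeq2 (adjusted p = 0.0485 and 0.0439) and without replicate 2 of both drugs (adjusted p = 0.00226 and 0.00162). SLC7A6, with 17.9 and 17.7 CPM with both drugs, 19.1 and 17.2 CPM with EPZ-6438 and 22.2 and 19.9 CPM with VTP50469, against 18.9 and 20.5 CPM with DMSO, was not called with both drugs (log2 change −0.21, SE 0.112, adjusted p = 0.183).

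With both drugs set against EPZ-6438 alone in KARPAS422, 3 of the 10 transporters were lower and none higher, against 10.9% and 10% of all genes. They were SLC7A1 (log2 difference −0.76, SE 0.117, adjusted p = 0.0148), SLC1A5 (log2 difference −0.59, SE 0.113, adjusted p = 0.0261) and SLC1A4 (log2 difference −0.41, SE 0.108, adjusted p = 0.0571). With the replicate block SLC38A1 was also lower (log2 −0.44, adjusted p = 0.0720). The change with both drugs was not called different from the sum of the single log2 changes in any of the 10 by edgeR, with 0% of all genes called higher and 0% lower and 769 genes at an unadjusted p under 0.05. Of the 10, 3 had an unadjusted p under 0.05. The largest departures were in SLC7A1 (log2 difference −0.68, SE 0.164, adjusted p = 0.718) and SLC1A5 (log2 difference −0.64, SE 0.157, adjusted p = 0.718), both below the sum, and DESeq2 called these 2 (adjusted p = 0.000157 and 0.0291).

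Several of these calls hung on single libraries. Without replicate 2 of EPZ-6438 none of the 5 calls with EPZ-6438 in KARPAS422 was left, while the log2 values stayed near those of the full set, at −0.55 for SLC7A5, −0.65 for SLC3A2, −0.61 for SLC1A5, −0.58 for SLC1A4 and −0.54 for SLC43A1 (of all genes, 0 were called, against 2419 with it). Leaving out replicate 1 of both drugs left 1 library in that group, and many more of all genes were then called as well. Relative to EPZ-6438 the log2 difference was then −0.99 for SLC38A1, against −0.41 in the full set, and −0.50 for SLC3A2, against −0.27. For SLC38A2 it was −0.57 where the full set gave 0.13. The departure from the sum of the single changes was −1.03 for SLC7A1, against −0.68 in the full set. Without replicate 1 or 2 of EPZ-6438, 1 or 0 of the 3 calls relative to EPZ-6438 were left, although without replicate 2 the log2 differences were −0.83 for SLC7A1, −0.70 for SLC1A5 and −0.50 for SLC1A4. The call of SLC1A4 was also lost without replicate 2 of both drugs (adjusted p = 0.106). SLC7A6 was lower with both drugs than with DMSO without replicate 1 of both drugs (log2 −0.45, adjusted p = 0.0223). When libraries were scaled to total counts alone, the median log2 change of all genes with both drugs was 0.33 in place of 0.10, and 64.7% of called genes were higher, against 48.3% with TMM, while the 7 lower transporters were called in the same direction. For EPZ-6438 alone that share was 66.5%, against 45.2%, and for VTP50469 alone 74.7%, against 94.2%.

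**Figure D4:**
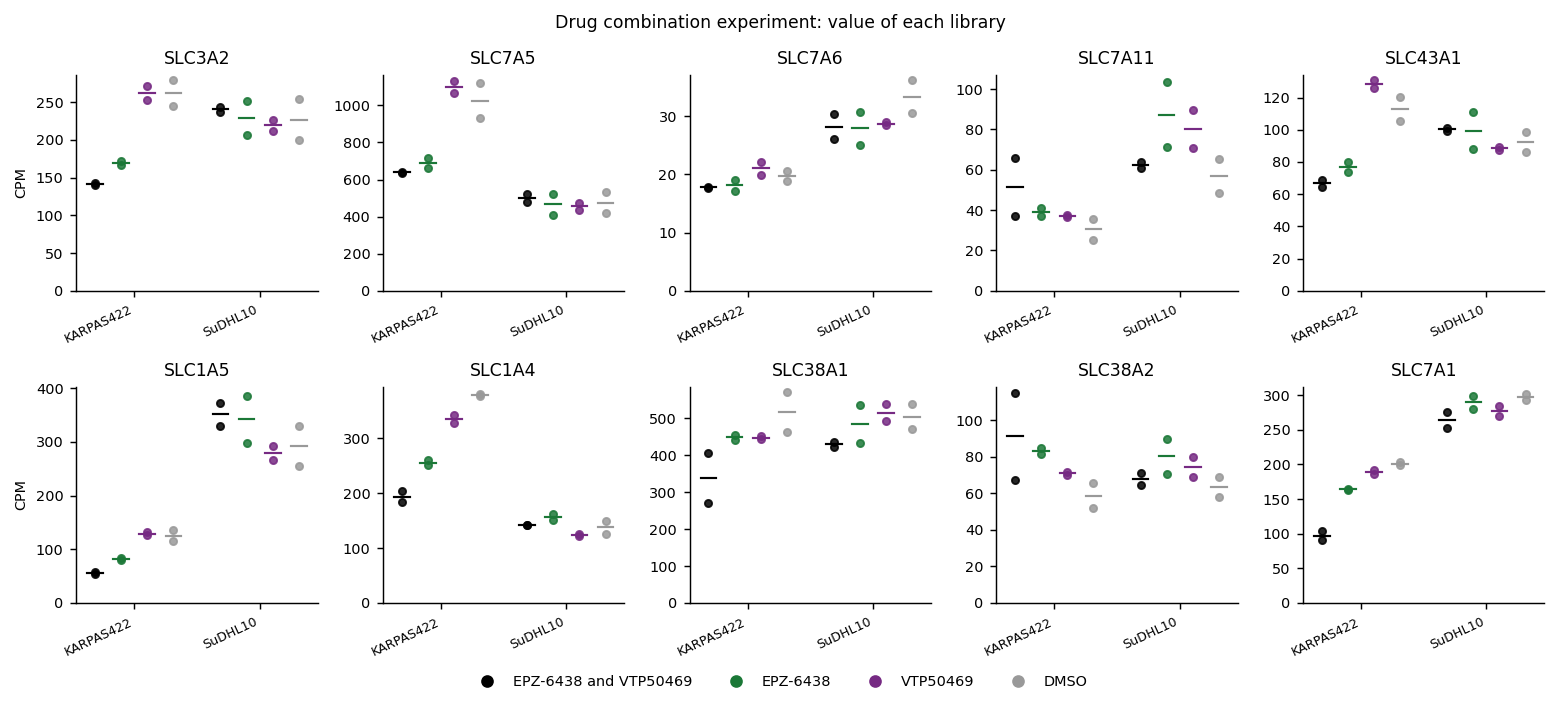
CPM of each transporter in every library of the drug combination experiment, on a linear axis from 0, with both drugs, EPZ-6438, VTP50469 and DMSO from left to right in KARPAS422 and SuDHL10, 1 point per library and a bar at the mean of 2 libraries. In KARPAS422 the SLC1A5 libraries lie at 53.5 and 56.9 CPM with both drugs, against 116 and 135 CPM with DMSO.

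In SuDHL10, at 24 hours, few transporters were called in the fit without replicate numbers. EPZ-6438 raised 1 of the 10, SLC7A11, and lowered none, against 12.1% of all genes higher and 5.39% lower. No transporter was called with VTP50469 (all genes 0% higher and 0% lower, with 724 at an unadjusted p under 0.05), with both drugs (all genes 13.7% higher and 7.93% lower) or with both drugs relative to EPZ-6438 (all genes 1.77% higher and 2.7% lower). None was called different from the sum of the single changes by edgeR (all genes 0% higher and 0.0526% lower), and DESeq2 called 1 lower, SLC7A11. At an unadjusted p under 0.05 the members numbered 1 with VTP50469, 0 with both drugs, 1 with both drugs relative to EPZ-6438 and 1 for the departure from the sum, and DESeq2 called none in the first 3 of these. With total counts alone the share of called genes that were higher was 89.4% with EPZ-6438, against 69.2% with TMM, and 86.9% with both drugs, against 63.3% with TMM. The median log2 change of the 10 was 0.11 with both drugs, 0.07 with EPZ-6438 and −0.04 with VTP50469, and that of all genes was −0.02, −0.02 and −0.000659.

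SLC7A11 had 60.9 and 63.6 CPM with both drugs, 71.3 and 103 CPM with EPZ-6438 and 70.7 and 89.6 CPM with VTP50469, against 48.3 and 65.2 CPM with DMSO in SuDHL10. It rose with EPZ-6438 (log2 change 0.62, SE 0.199, adjusted p = 0.0773), a call that was lost without replicate 1 of DMSO (adjusted p = 0.286), without replicate 2 of EPZ-6438 (adjusted p = 0.216) and in a fit of the 2 groups alone (adjusted p = 0.127). Replicate 2 was above replicate 1 in each group, by least with both drugs. SLC38A2 had 64.8 and 71.3 CPM with both drugs, 70.8 and 90.1 CPM with EPZ-6438 and 69.3 and 80.0 CPM with VTP50469, against 58.2 and 69.1 CPM with DMSO, and did not pass the test with EPZ-6438 (log2 change 0.34, SE 0.143, adjusted p = 0.163). SLC1A5 had 373 and 329.6 CPM with both drugs, 386 and 298 CPM with EPZ-6438 and 292 and 267 CPM with VTP50469, against 329.5 and 254 CPM with DMSO. SLC7A5 had 521 and 478 CPM with both drugs, 525 and 407 CPM with EPZ-6438 and 476 and 437 CPM with VTP50469, against 531 and 421 CPM with DMSO. Neither was called with any treatment in the fit without replicate numbers. SLC3A2, at 244 and 237 CPM with both drugs, 251 and 207 CPM with EPZ-6438 and 226 and 212 CPM with VTP50469, against 254 and 199 CPM with DMSO, had a log2 difference of 0.12 (SE 0.134) with both drugs, where KARPAS422 at 48 hours gave −0.95 (SE 0.106). The times differ, and the difference between the lines was not tested. For the remaining members the log2 difference between both drugs and DMSO in SuDHL10 was −0.14 (SE 0.0887) for SLC7A1, 0.07 (SE 0.105) for SLC1A4, 0.15 (SE 0.127) for SLC43A1, −0.21 (SE 0.115) for SLC38A1 and −0.21 (SE 0.140) for SLC7A6, none of which passed the test.

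With the replicate number as a block more small changes were called in SuDHL10, as over all 11409 genes tested. The all-gene calls rose from 1999 to 4490 with EPZ-6438, from 0 to 463 with VTP50469 and from 2469 to 5306 with both drugs. They rose from 510 to 3790 for both drugs relative to EPZ-6438 and from 6 to 2544 for the departure from the sum. For EPZ-6438 there were 5 in place of 1, with SLC7A11 (log2 0.62, adjusted p = 9.74e-05), SLC38A2 (log2 0.34, adjusted p = 0.00295), SLC1A5 (log2 0.24, adjusted p = 0.0265) and SLC1A4 (log2 0.20, adjusted p = 0.0598) higher and SLC7A6 (log2 −0.25, adjusted p = 0.0455) lower. For VTP50469 the block gave 1 in place of 0, SLC7A11 (log2 0.51, adjusted p = 0.0175). For both drugs it gave 3 in place of 0, with SLC1A5 (log2 0.31, adjusted p = 0.00524) higher and SLC38A1 (log2 −0.20, adjusted p = 0.0325) and SLC7A6 (log2 −0.21, adjusted p = 0.0784) lower. Relative to EPZ-6438, SLC7A11 (log2 −0.45, adjusted p = 0.00264) and SLC38A2 (log2 −0.22, adjusted p = 0.0515) were lower with both drugs. The same genes lay below the sum of the single changes, SLC7A11 by log2 −0.97, adjusted p = 0.000625, and SLC38A2 by log2 −0.46, adjusted p = 0.0168.

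**Figure D5:**
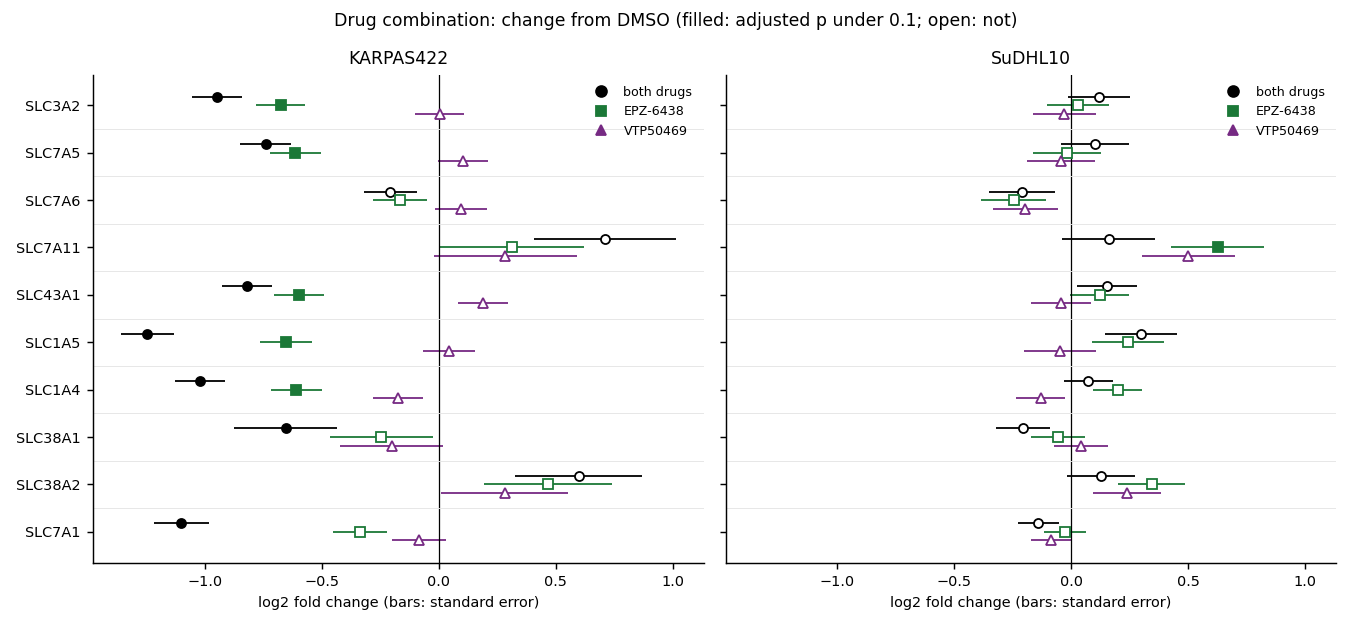
Log2 fold change of each transporter over DMSO with both drugs, EPZ-6438 and VTP50469 in KARPAS422 and SuDHL10, with bars of 1 standard error of the edgeR fit and filled points for an adjusted p under 0.1. The fit used no replicate numbers. With both drugs SLC1A5 lies at −1.25 in KARPAS422 and at 0.30 in SuDHL10.

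The genes of the amino acid response were called in both directions in KARPAS422. In KARPAS422, 7 of 14 tested were lower and 4 higher with both drugs (median log2 change −0.37), 1 was lower and 2 higher with EPZ-6438 (median 0.01), and 0 were lower and 1 higher with VTP50469 (median −0.00904). Of all genes 25.2% were lower and 23.5% higher with both drugs, 10% and 8.27% with EPZ-6438, and 0.197% and 3.18% with VTP50469. ATF4 averaged 197 CPM with both drugs and 346 CPM with DMSO (log2 −0.87, SE 0.0845), and ASNS averaged 104 CPM with both drugs and 223 CPM with DMSO (log2 −1.15, SE 0.166). SESN2, which fell with MI-503, averaged 24.03 CPM with both drugs and 11.9 CPM with DMSO (log2 0.95, SE 0.109). In SuDHL10, 7 of 13 were higher and 0 lower with EPZ-6438 (median 0.41), and 2 higher and 0 lower with both drugs (median 0.26), against 12.1% and 5.39% of all genes higher and lower with EPZ-6438 and 13.7% and 7.93% with both drugs. There ASNS averaged 316 CPM with EPZ-6438 and 233 CPM with DMSO (log2 0.44, SE 0.0909). No gene of the list was called with VTP50469 in SuDHL10.

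Of the other amino acid transporters in KARPAS422, 6 of 20 were higher, 2 lower and 12 neither with both drugs (median log2 change 0.98, all genes 0.10). With EPZ-6438 1 was higher and 3 lower, and with VTP50469 1 was higher and 0 lower. Of all genes 23.5% were higher and 25.2% lower with both drugs, 8.27% and 10% with EPZ-6438, and 3.18% and 0.197% with VTP50469. SLC6A9, a glycine transporter, averaged 26.1 CPM with both drugs, 11.2 CPM with EPZ-6438 and 15.6 CPM with VTP50469, against 7.32 CPM with DMSO, and passed the test with each, with log2 changes of 1.77 (SE 0.143), 0.58 (SE 0.145) and 1.09 (SE 0.142) in that order. In SuDHL10 it averaged 12.1 CPM with both drugs and 8.29 CPM with EPZ-6438, against 2.80 CPM with DMSO, with log2 changes of 2.14 (SE 0.147) and 1.57 (SE 0.150). SLC6A6, a taurine transporter, averaged 53.9 CPM with both drugs and 111 CPM with DMSO in KARPAS422 (log2 −1.10, SE 0.0926). Of this list in SuDHL10, 4 of 16 were higher and 2 lower with both drugs, against 13.7% and 7.93% of all genes. With EPZ-6438 2 were higher and 0 lower there, against 12.1% and 5.39% of all genes, and none was called with VTP50469.

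The 2 menin inhibitors were used in KARPAS422 at different doses and times and in separate experiments, so their values stand side by side without a test. The log2 difference from DMSO of SLC7A5 was −1.74 (SE 0.0638) with 800 nM MI-503 for 3 days and 0.10 (SE 0.108) with 330 nM VTP50469 for 48 hours. For SLC1A5 the values were −1.48 (SE 0.0527) with MI-503 and 0.04 (SE 0.110) with VTP50469, and for SLC7A1 −1.20 (SE 0.0377) with MI-503 and −0.08 (SE 0.115) with VTP50469. For SLC1A4 they were −0.17 (SE 0.0394) with MI-503 and −0.17 (SE 0.108) with VTP50469, and 1000 nM EPZ-6438 for 48 hours gave −0.61 (SE 0.108).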

How the data were processed

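By the study's methods, RNA of the 5 lines was sequenced after depletion of ribosomal RNA. The RNA kit named in the labels differs from that in the methods. The authors deposited whole-number counts for each gene, without normalisation. The submitters' processing notes name CASAVA 1.7, HISAT2 2.1.0, Picard 2.23.1, featureCounts 1.6.1 and the hg38 build. No source used here gives the annotation, the strand setting or the treatment of reads with several alignments. The tables of the CRISPR screens were not used here.

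Groups were taken from the labels. The members and gene lists were chosen with earlier results of these data known. All 10 members are named in each comparison, and from each list up to 3 called genes with the smallest adjusted p could be named. Counts were filtered with filterByExpr (minimum count 10, minimum total 15), scaled by TMM and tested with edgeR 4.0.16 (R 4.3.3, limma 3.58.1) by the two-sided quasi-likelihood F test, in 23 comparisons. Changes with MI-503 were fitted within a line, their differences over the 8 libraries of both lines, baselines over DMSO libraries, and drug combinations over the 8 libraries of a line. Departure from the sum of the single changes was both drugs minus EPZ-6438 minus VTP50469 plus DMSO. Patterns across libraries used log2 CPM with a pseudocount of 1 in genes of at least 5 CPM. The test was checked on simulated counts.

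In the drug combination experiment samples with the same replicate number deviated together, with correlations of 0.190 to 0.789 over 6 pairs of groups in KARPAS422 and 0.248 to 0.799 over 6 in SuDHL10. The numbers were therefore taken as pairs in an alternative fit with a replicate block, from the data and not from the labels. The reported fits used no block and leave this pairing out. Alternatives were DESeq2 1.42.0, scaling by RLE size factors or by total counts alone, no filter, counts thinned to the smallest library, a replicate block, other libraries in the fit and leaving out each library in turn. Counting precision follows from the depth of 8956156 to 54883332 counts per library.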

Additional observations from a re-analysis of the deposited data

Results flagged for a closer look

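The change with MI-503 differed between lines in 17 tests of a member over 2 pairs of lines (edgeR, adjusted p under 0.1). Of all genes 14.7% were called lower and 9.52% higher in KARPAS422 minus Farage, and 22.5% and 19.3% in DB minus SUDHL5. In KARPAS422 minus Farage the log2 difference of the changes was −1.48 for SLC7A5, −1.27 for SLC3A2, −1.29 for SLC1A5, −0.84 for SLC7A1, −0.54 for SLC38A2 and −1.62 for SLC43A1. It was smaller in size for SLC38A1 (−0.30), SLC7A6 (−0.21) and SLC7A11 (0.28). In DB minus SUDHL5 it was −0.33 for SLC7A5, −0.90 for SLC1A5, −0.22 for SLC7A1, −0.65 for SLC1A4 and −0.38 for SLC7A6, and it was positive for SLC7A11 (1.06), SLC38A1 (0.41) and SLC43A1 (0.78). The call of SLC7A6 in KARPAS422 minus Farage was lost with DESeq2 and with RLE size factors. Limits of the other small differences are given with the results.

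In 5 further cases of a member in a pair of lines, every treated library of one line lay above its controls and every treated library of the other below. The difference itself was not tested, and how often this occurred over all genes was not counted. The log2 difference of the changes was 0.48 for SLC7A11 in KARPAS422 minus SUDHL5, −0.54 for SLC38A1 in KARPAS422 minus DB and 0.26 for SLC38A1 in DB minus Farage. For SLC43A1 it was −1.51 in KARPAS422 minus DB and 0.86 in Farage minus SUDHL5. The rise of SLC38A1 in DB was small (log2 0.07) and was not called by DESeq2 or in a fit of all 16 libraries. Groups of 2 libraries allow no check for outlying libraries.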

How the results depend on the processing

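Over all alternatives, 2690 values of the members were recomputed, 1502 of them for a value that was called. Of these 1446 kept their call and direction and 54 lost the call, 91 values gained one, and 6 differences changed sign with a call in one of the fits. With total counts alone the signs turned for SLC7A11 (log2 0.0187) between KARPAS422 and Farage, for SLC1A5 (0.0875) and SLC43A1 (0.14) between KARPAS422 and SUDHL5 and for SLC3A2 (0.12) between DB and Farage, all in untreated cells. Without replicate 1 of both drugs in KARPAS422 the sign turned for SLC38A2 relative to EPZ-6438 (−0.57, within a range of −0.57 to 0.50 over single libraries left out) and for SLC7A11 relative to the sum of the single changes (−0.64, within −0.64 to 0.53). Total counts alone moved the median of all genes from TMM by over 0.1 on the log2 scale in untreated KARPAS422 minus Farage (to 0.23), KARPAS422 minus SUDHL5 (0.17), DB minus Farage (0.11), DB minus SUDHL5 (0.07) and SuDHL10 minus KARPAS422 (−0.19), and in KARPAS422 with EPZ-6438 (0.08), both drugs (0.33), both drugs relative to EPZ-6438 (0.21) and the departure from the sum (0.09).

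The number of transporters called moved by over 1.5 times mostly in SuDHL10. With the replicate block it was 5 with EPZ-6438 in place of 1, 1 with VTP50469, 3 with both drugs, 2 with both drugs relative to EPZ-6438 and 2 for the departure from the sum, in place of 0 in each. The calls over all genes rose under the block as well, to 4490, 463, 5306, 3790 and 2544 in the same order. Without the filter the number of transporters called was 2 with EPZ-6438 and 1 in each of the other 4 comparisons of SuDHL10. Total counts alone gave 2 with EPZ-6438, and a fit of the 2 groups alone gave 0 with EPZ-6438 and 1 with both drugs. DESeq2 called 1 in the departure from the sum in SuDHL10 and 2 in KARPAS422, in place of 0. Leaving out 1 library gave 2 to 7 for MI-503 in Farage, 0 to 5 for EPZ-6438 in KARPAS422, 0 to 9 for both drugs relative to EPZ-6438 and 0 to 9 for the departure from the sum there. In SuDHL10 it gave 0 to 3 with EPZ-6438, 0 to 1 with both drugs, 0 to 3 relative to EPZ-6438 and 0 to 2 for the departure from the sum. The cause was not tested.

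In the MI-503 experiment samples of a line share only a replicate number. Their deviations correlated at 0.164 for KARPAS422, 0.0589 for DB, −0.0621 for Farage and −0.174 for SUDHL5. The replicate block added calls of SLC3A2 (−0.13) and SLC38A2 (−0.09) with MI-503 in Farage and lost that of SLC1A5 (−0.07) between untreated KARPAS422 and SUDHL5. Over all 23 comparisons the block kept 127 of 129 calls and added 17, and beyond the values given here and beside the results it changed no other call. With the numbers of SUDHL5 crossed, chosen after seeing the data, 15 of 15 calls were kept and 2 added over 2 comparisons. Counts of all genes called moved by over 1.5 times in 58 of 269 settings, in 12 of 23 comparisons. They ranged over 1039 to 4011 (3421 in the reported fit) with MI-503 in Farage, 1802 to 4276 (3684 in the reported fit) for KARPAS422 minus Farage, 0 to 3412 (2419 in the reported fit) with EPZ-6438, 0 to 941 (447 in the reported fit) with VTP50469, 3585 to 11135 (6441 in the reported fit) with both drugs, 0 to 9701 (2766 in the reported fit) for both drugs relative to EPZ-6438 and 0 to 6369 (0 in the reported fit) for the departure from the sum in KARPAS422. In SuDHL10 they ranged over 944 to 4490 (1999 in the reported fit), 0 to 463 (0 in the reported fit), 860 to 5306 (2469 in the reported fit), 13 to 3790 (510 in the reported fit) and 0 to 2544 (6 in the reported fit) in the same order of comparisons. The lowest count of a member in a library was 180, for SLC7A6 in KARPAS422 with EPZ-6438.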

Other observations

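Genes of mTORC1 and of its upstream regulation, among them those of amino acid sensing, formed a further list of 22, chosen with earlier results known. With MI-503, 7 of 22 were higher and 7 lower in KARPAS422, 11 and 6 in DB, 4 and 4 in Farage, and 10 and 5 of 21 in SUDHL5 (edgeR, adjusted p under 0.1). Of all genes 25.5% and 26.3% were higher and lower in KARPAS422, 34.5% and 34.7% in DB, 12.3% and 14.7% in Farage and 26.3% and 28.7% in SUDHL5. SESN3, a sestrin, averaged 157 CPM with MI-503 and 68.8 CPM with DMSO in KARPAS422 (log2 1.19, SE 0.0426), and 36.0 CPM with MI-503 and 18.8 CPM with DMSO in SUDHL5 (log2 0.95, SE 0.1005). Its relative SESN1 averaged 46.6 CPM with MI-503 and 19.8 CPM with DMSO in SUDHL5 (log2 1.25, SE 0.0704). In DB, where SESN3 averaged 0 CPM with DMSO, the list's called genes with small adjusted p included RRAGD, a Rag GTPase, at 63.3 CPM with MI-503 and 16.2 CPM with DMSO (log2 1.97, SE 0.0615), and FLCN, folliculin, at 142 CPM with MI-503 and 49.7 CPM with DMSO (log2 1.51, SE 0.0594). Others fell, such as RPTOR in DB, at 50.7 CPM with MI-503 and 82.0 CPM with DMSO (log2 −0.69, SE 0.0411). LAMTOR3 fell in KARPAS422, with 24.2 CPM with MI-503 and 31.8 CPM with DMSO (log2 −0.39, SE 0.0548).

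In the drug combination experiment 5 of 18 genes of this list were higher and 5 lower with both drugs in KARPAS422, 3 higher and 2 lower with EPZ-6438, and none was called with VTP50469, against 23.5% and 25.2%, 8.27% and 10% and 3.18% and 0.197% of all genes higher and lower. SESN3 averaged 250.4 CPM with both drugs and 133 CPM with EPZ-6438, against 23.1 CPM with DMSO, with log2 changes of 3.40 (SE 0.321) and 2.49 (SE 0.313). SESN1 rose with both as well, by 1.67 (SE 0.243) and 1.15 (SE 0.242) on the log2 scale. In SuDHL10, 4 of 19 were higher and 2 lower with both drugs, 4 higher and 1 lower with EPZ-6438, and none was called with VTP50469, against 13.7% and 7.93%, 12.1% and 5.39% and 0% and 0% of all genes. RRAGD averaged 12.6 CPM with both drugs and 16.4 CPM with EPZ-6438, against 7.56 CPM with DMSO. LAMTOR3 averaged 24.8 CPM with both drugs and 37.1 CPM with DMSO there (log2 −0.55, SE 0.157).

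KARPAS422 treated with DMSO was measured in both experiments, whose tables were normalised separately and are not tested against each other. SLC7A6 averaged 19.7 CPM in the drug combination experiment and 108 CPM in the MI-503 experiment, a ratio of 5.49 for the MI-503 over the drug combination experiment. SLC38A2 averaged 58.7 CPM in the drug combination experiment and 268 CPM in the MI-503 experiment. SLC7A5 averaged 1024 CPM in the drug combination experiment and 966 CPM in the MI-503 experiment. Over 8114 genes of at least 5 CPM in both, the ratio of the drug combination to the MI-503 experiment had a median of 1.23, and 10% of genes lay below 0.728 and 10% above 1.85.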
